A study of Mus musculus with 2 samples.

Results

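The carbonic anhydrase genes of the mouse were examined for trimethylation of lysine 4 of histone H3 (H3K4me3) in MEL cells. Members were 10 genes found by symbol in the GENCODE M21 annotation of mm10: Car1, Car2, Car3 and Car13, which lie side by side on chromosome 3, and Car4, Car5b, Car8, Car9, Car12 and Car14. They are 10 of 21938 protein-coding genes. The study holds 1 group with 2 biological replicates of H3K4me3 ChIP-seq from the MEL line, an immortalized mouse erythroleukaemia line that the labels call a counterpart of human K562 cells. The labels give both replicates the same biosample record, so the spread between them may be technical. They name no treatment and no other condition, give the age as unknown, and give fragment sizes of 150 to 350 bp. The data are lists of peaks, 1 for each replicate, 1 from pooled reads and 1 of replicated peaks, with no read counts, so the depth behind a missing peak is unknown. A gene was called marked where a peak of the replicated list lay within 1000 bp of any of its transcript starts. The genes were chosen by their peaks in these lists, by presence, width and position, so their calls, widths and signals are descriptions with no test.

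Carbonic anhydrases catalyse the reversible hydration of CO2 to bicarbonate and a proton. In red cells the cytosolic enzymes CA I and CA II, the products of Car1 and Car2, let CO2 from tissues be carried in the blood as bicarbonate, which leaves the cell through the anion exchanger Slc4a1. Car1 has a distal promoter used in erythroid cells and a proximal promoter used in the colon. H3K4me3 is found at the starts of active and poised genes, and it is often widest at genes that define a cell type.

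Peaks lay at the starts of 7 of the 10 genes, against 50.3% of all protein-coding genes. All 4 clustered genes were marked, and of the other 6 genes Car5b, Car9 and Car12 were. Car4, Car8 and Car14 had no peak within 1000 bp of a start. Each replicate list marked the same 7 genes and also Car14, against backgrounds of 50.4% in replicate 1 and 50.9% in replicate 2. The pooled list marked the 7 genes of the replicated list, against 50.6%. The nearest start of each marked gene lay at most 17 bp from a replicated peak, whereas the nearest peak to Car14, the closest of the unmarked genes, was 1378 bp away. The 10 genes have 36 distinct transcript starts, of which 20 lay within 1000 bp of a replicated peak and 13 lay inside one. Over all protein-coding genes these shares were 44.1% and 32.6% of 93459 starts.

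The cell type of the lists was checked with marker genes. All 8 erythroid markers, among them Gata1, Klf1 and Tfrc, were marked in every list. The share over all protein-coding genes was 50.3% in the replicated list. Of 20 markers of other cell types, 4 were marked: Pf4 and Itga2b of megakaryocytes, Col1a1 of fibroblasts and Pecam1, whose peak also lay at the start of Milr1. No macrophage, T cell or B cell marker was marked in any list.

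The widest H3K4me3 of the family, and nearly the widest of any gene, lay at the distal start of Car1 (chr3:14766216-14808368, minus strand). Peaks with gaps of up to 1000 bp were merged into domains, and the Car1 domain reached 13424 bp in replicate 1 and 13139 bp in replicate 2 (13281.5 ± 201.5 bp, SD, n = 2). In the replicated list it spanned 13100 bp in 7 peaks, chr3:14796317-14809416, and ranked 2 by width among 11037 marked genes, whose median domain was 2258 bp. It ranked 4 in replicate 1 and 2 in replicate 2. The domain was lopsided: 12051 bp lay downstream of the distal start, inside the gene, and 1048 bp upstream. Most of it was a single peak of 9303 bp, chr3:14799046-14808348, the second widest of 37379 peaks, with its summit in an intron 164 bp downstream of the nearest start. The same peak lay at the start of the processed pseudogene Gm16399, so the signal of the pair cannot be told apart.

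Among marked genes, width and height went different ways at Car1. The signal value, a score the authors gave each peak, was 9.23 for the strongest Car1 peak against a median of 13.8 over marked genes, and 15.5% of marked genes had a lower value. Within replicate 1 the Car1 signal was above 39.5% of marked genes and within replicate 2 above 12.2%. It thus stood in the lower part of the marked genes in both replicates, while the Car1 domain was among the 4 widest. Among all peaks, with or without a start, the same peak was above 84.3% in replicate 1 and 65.7% in replicate 2. The most distal start itself lay in a gap of 323 bp between the wide peak, which ended 20 bp short of it, and an upstream peak of 745 bp, chr3:14808672-14809416. In replicate 2 the wide peak ended exactly at that start, and in replicate 1 it ended 37 bp short of it. The proximal start, 29909 bp further into the gene, was 15797 bp from the nearest replicated peak, 15527 bp in replicate 1 and 15778 bp in replicate 2. In every list a peak thus lay within 37 bp of the distal start, and none lay near the proximal one.

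**Figure D1:**
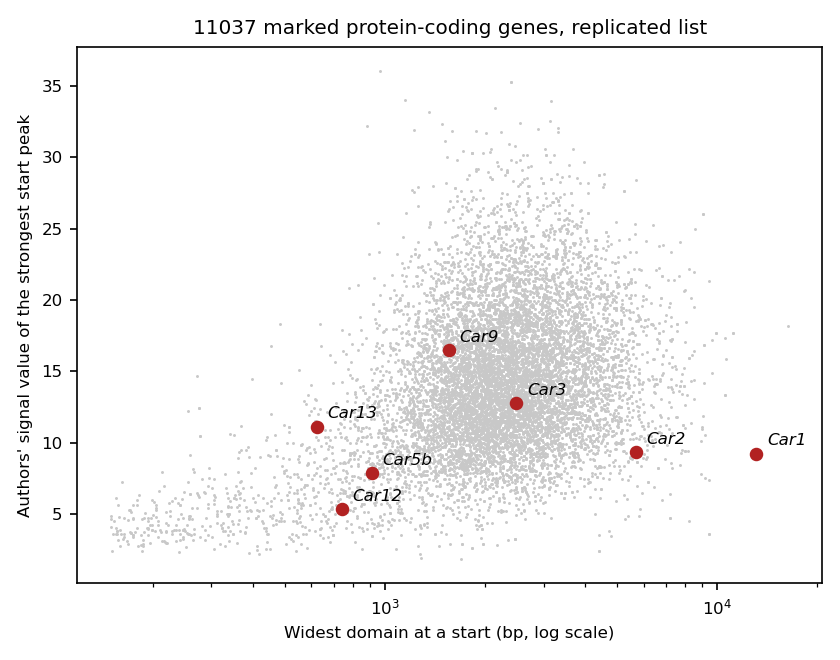
Width of the widest domain at a start (log axis, bp) against the authors' signal value of the strongest start peak, for all 11037 marked protein-coding genes of the replicated list (grey) and the 7 marked carbonic anhydrase genes (red). Car1 lies far to the right at 13100 bp with a signal of 9.23, Car2 next at 5680 bp, and Car13, Car12 and Car5b are all under 1000 bp.

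Car2 (chr3:14886273-14900770, plus strand), the high-activity cytosolic enzyme, carried a domain that measured 6140 bp in the first replicate and 5678 bp in the other (5909 ± 326.7 bp, SD, n = 2). The replicated domain of 5680 bp, chr3:14885158-14890837, ranked 264 of 11037, above the 95th percentile of 4864 bp. All 3 Car2 starts lay inside the first peak of 3320 bp. Its signal of 9.35 was near that of Car1 in the replicated list, with 16.2% of marked genes lower. The strongest Car2 start peak had 10.7 in replicate 1, against 11.0 for Car1. In replicate 2 the values differed, with 14.6 for Car2 and 9.24 for Car1. The summit lay in an intron 552 bp downstream of the nearest start in the replicated list, and 110 bp downstream in replicate 2. In replicate 1 the start region was split into 2 peaks and the stronger had its summit 269 bp upstream of the first start. The replicated Car2 domain, like that of Car1, ran mostly into the gene, 4564 bp downstream of the first start against 1115 bp upstream. This was not particular to Car1 and Car2. In the same list the domains of Car13, Car12 and Car9 lay wholly downstream of the first start. That of Car5b was nearly even, with 459 bp upstream and 455 bp downstream. In both replicates only Car9 of these genes stayed wholly downstream. The Car12 domain reached 574 bp upstream in replicate 1 and 167 bp in replicate 2. That of Car13 reached 258 bp upstream in replicate 2. Both still ran mostly downstream.

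Car3 (chr3:14863512-14872523, plus strand) encodes a low-activity isoenzyme best known from muscle, liver and fat. It was marked at an internal start alone. That start belongs to a retained-intron transcript that begins 5666 bp downstream of the first start. The starts of the coding transcript and of the other retained-intron transcript lay 5419 and 5445 bp from the nearest replicated peak, and 5393 to 5451 bp away in the replicate lists. The internal domain was 2447 bp in replicate 1 and 2547 bp in replicate 2 (2497 ± 70.7 bp, SD, n = 2), close to the median of all marked genes. Its strongest peak, chr3:14868957-14869999, had a signal of 12.7 and its summit in an intron of Car3. The summit lay 653 bp downstream of the internal start and 657 and 651 bp downstream in the replicates.

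Car13 (chr3:14641727-14663002, plus strand), a further cytosolic isoenzyme, stands at the far end of the cluster. It had 1 narrow peak of 624 bp, chr3:14641734-14642357, that began 7 bp downstream of its only start. Its domain measured 636 bp in replicate 1 and 818 bp in replicate 2 (727 ± 128.7 bp, SD, n = 2). Only 3.81% of marked genes had a narrower domain. The signal differed in rank between replicates: 6.85% of marked genes were lower in replicate 1 and 39.0% in replicate 2. The 4 neighbours therefore covered nearly the whole range of domain widths among marked genes.

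**Figure D2:**
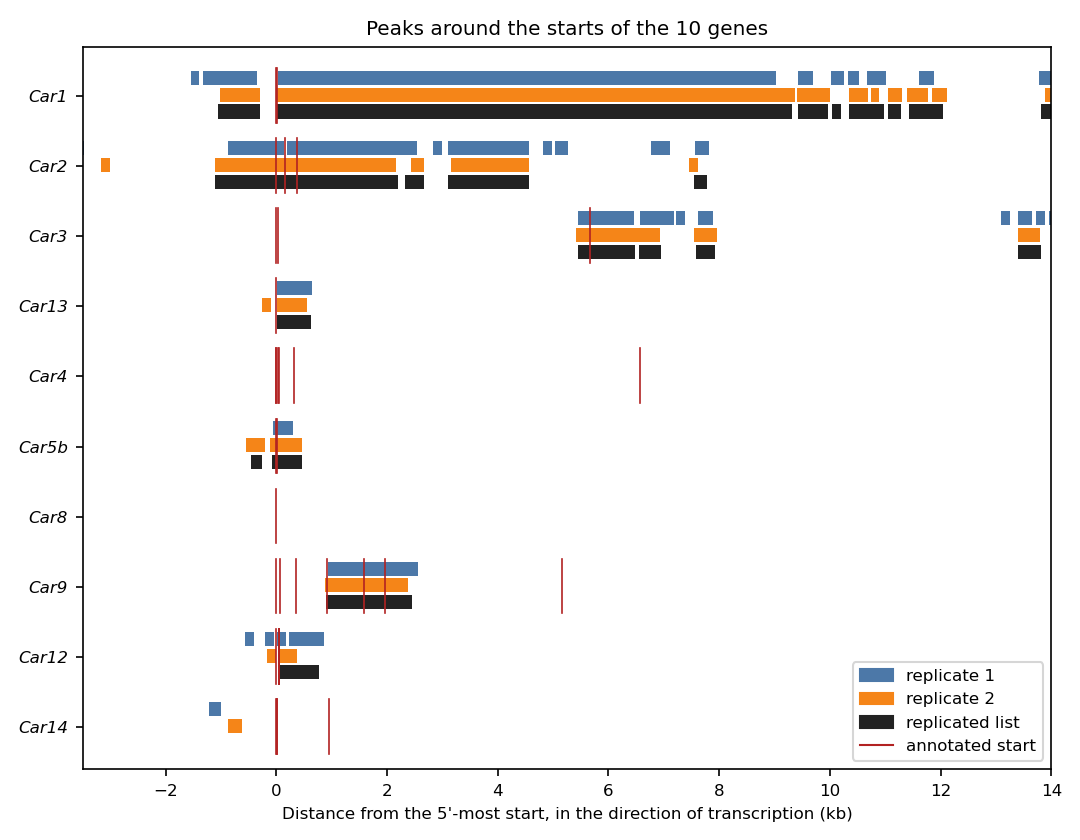
Peaks of replicate 1 (blue), replicate 2 (orange) and the replicated list (black) by distance from the 5'-most start of each of the 10 genes, in kb in the direction of transcription; red lines are annotated starts within the window. The Car1 and Car2 peaks run downstream of the start, the Car3 peaks lie at its internal start 5666 bp into the gene, Car9 is covered from 895 bp on, and Car4 and Car8 have no peak in the window.

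The cluster as a whole, from the start of Car13 to the end of Car2, spans 259044 bp and contains 21 summits of replicated peaks. That is 8.11 per 100 kb, against 1.37 per 100 kb over the genome. Peaks covered 9.67% of it in replicate 1, 8.61% in replicate 2 and 9.0% in the replicated list, against 1.15% of the genome. The coverage was uneven. In the replicated list it was 28.0% of the Car1 gene, 29.4% of Car2, 19.8% of Car3 and 2.93% of Car13. The 103213 bp between Car13 and Car1 held no replicated peak, and 1 weak peak in replicate 2. By contrast, 26.9% of the 13749 bp between Car3 and Car2 was covered, 32.5% in replicate 1 and 20.7% in replicate 2. These shares include the part of the Car2 start domain upstream of its first start, 1115 bp in the replicated list.

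**Figure D3:**
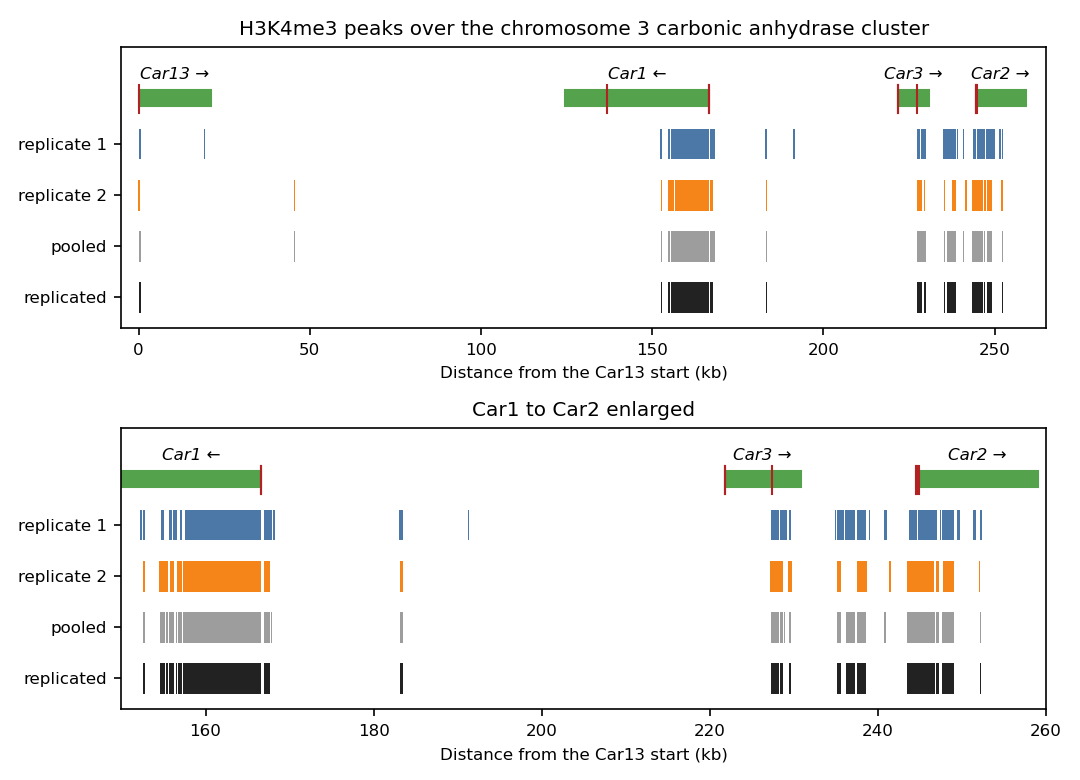
Map of the chromosome 3 cluster with genes (green, arrows for strand, red lines for annotated starts) above the peaks of the 4 lists, by distance in kb from the Car13 start; the lower panel enlarges Car1 to Car2. Peaks crowd at the distal start of Car1, the internal start of Car3, the stretch before Car2 and Car2 itself, and the 103213 bp between Car13 and Car1 are empty in replicate 1 and the replicated list; very narrow peaks are drawn at a minimum width.

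Across the 10 genes and the cluster, 26 replicated peaks were found: 10 at starts, 11 in gene bodies away from starts and 5 between the clustered genes. The list of replicate 1 held 20 body and 12 between-gene peaks, and that of replicate 2 held 14 and 5. Of the replicated peaks, 3 body and 3 between-gene peaks had −log10 q of at least 5. Both replicate lists held 21 of the 26, replicate 1 alone held 3 and replicate 2 alone 2, counting an overlap of any length. With at least 50% of the peak covered in each replicate list, 17 were held by both. Start peaks had a median width of 743.5 bp and a median signal of 8.55. Body peaks were smaller, with medians of 350 bp and 3.24, and between-gene peaks had medians of 419 bp and 3.83. Of the body peaks, 6 lay in Car1 with signals of 2.61 to 3.74, 3 in Car2, 1 in Car3 and 1 in Car8. Most of them are also parts of the merged start domains of Car1, Car2 and Car3 described above. Those outside a start domain were chr3:14794256-14794556 in Car1, chr3:14893821-14894055 in Car2 and the Car8 peak. The strongest Car2 body peak, chr3:14889366-14890837, was 1472 bp wide with a signal of 6.73. It forms the downstream end of the Car2 start domain. Of the other Car2 body peaks, 1 had a q-value above 0.05.

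Between the genes, the strongest peak lay 6813 bp upstream of Car2, chr3:14879208-14880359, 1152 bp wide. Its signal was 8.12, with 8.88 in replicate 1 and 7.98 in replicate 2, close to the median of the start peaks. Beside it lay 3 weaker peaks with signals of 2.68 to 3.83, of which the nearest pair was found in replicate 1 alone. The other between-gene peak, chr3:14824823-14825219, lay 16578 bp upstream of Car1, with signals of 6.61 and 6.0 in the replicates and 5.69 in the replicated list. No start is annotated within 1000 bp of these summits. The reference sequence (GRCm38.p6, RefSeq) of 300 bases around the summit is shown for the strongest peak before Car2, for the peak upstream of Car1, and for the Car3 internal peak because it marks Car3 away from its coding start. The windows are chr3:14879310-14879609 on the plus strand, chr3:14824796-14825095 on the minus strand and chr3:14869681-14869980 on the plus strand, each 5′ to 3′ along its nearer gene. Capitals mark matches on either strand to a motif of GATA factors, AGATAA, a motif of KLF1, CCACACCC, the TATA box, searched as TATAAA, the E-box CANNTG and the core of the hypoxia response element, ACGTG.
Between Car3 and Car2: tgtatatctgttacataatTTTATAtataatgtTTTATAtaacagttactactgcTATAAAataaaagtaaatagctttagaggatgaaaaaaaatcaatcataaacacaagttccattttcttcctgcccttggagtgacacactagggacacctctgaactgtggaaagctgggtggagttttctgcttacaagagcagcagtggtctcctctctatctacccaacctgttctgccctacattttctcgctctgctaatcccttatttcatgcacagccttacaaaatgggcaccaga
Upstream of Car1: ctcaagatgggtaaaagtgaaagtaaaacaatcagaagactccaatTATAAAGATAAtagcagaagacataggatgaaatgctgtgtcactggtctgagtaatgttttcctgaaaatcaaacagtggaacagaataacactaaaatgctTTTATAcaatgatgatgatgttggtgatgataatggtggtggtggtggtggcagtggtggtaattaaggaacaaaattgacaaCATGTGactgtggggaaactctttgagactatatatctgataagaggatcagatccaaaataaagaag
Car3 internal start: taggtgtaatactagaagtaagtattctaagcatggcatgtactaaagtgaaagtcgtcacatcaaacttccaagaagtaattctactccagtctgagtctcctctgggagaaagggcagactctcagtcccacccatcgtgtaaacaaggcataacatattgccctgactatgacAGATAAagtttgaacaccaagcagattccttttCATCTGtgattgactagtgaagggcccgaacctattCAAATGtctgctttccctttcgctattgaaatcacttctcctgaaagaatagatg

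The window between Car3 and Car2 held 3 matches to TATAAA. The window upstream of Car1 held 1 AGATAA that overlaps a TATAAA by 1 base, a second TATAAA and 1 CANNTG. The Car3 window held 1 AGATAA and 2 CANNTG. Over the summits of all 26 peaks, AGATAA was found at 4, CCACACCC at 0, TATAAA at 6, CANNTG at 17 and ACGTG at 3. Of 37379 replicated peaks, 15.1% held AGATAA, 2.83% CCACACCC, 13.7% TATAAA, 71.8% CANNTG and 20.1% ACGTG in windows of the same length. A match is a run of letters and no evidence of a bound factor.

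Among the genes outside the cluster, Car9 had the highest signal in each list. Car9 (chr4:43506966-43513729, plus strand) encodes a membrane enzyme of the cell surface known as a target of the hypoxia response. It had 1 peak, 1633 bp wide in replicate 1 and 1489 bp in replicate 2 (1561 ± 101.8 bp, SD, n = 2). The replicated peak, chr4:43507861-43509419, had a signal of 16.5, the highest of the 10 genes in that list, with 70.0% of marked genes lower. That rank rested on replicate 2, where 97.3% of marked genes were lower against 42.3% in replicate 1. In replicate 1 the Car9 signal of 11.3 was below the 11.6 of Car3. The peak did not cover the first start of Car9, which lay 895 bp before it, and its summit lay in a coding exon 100 bp from the start of an internal processed transcript. It was also 81 bp from the start of the antisense gene Gm12454, and a list of peaks cannot tell the 2 genes apart. The position was the same in both replicates, with summits 99 and 96 bp from that internal start.

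Car12 (chr9:66713686-66766845, plus strand), another membrane enzyme of the cell surface, and Car5b (chrX:163976822-164027997, minus strand), a mitochondrial enzyme, had narrow and weak peaks. The Car12 domain was 1429 bp in replicate 1, where it was split into 4 peaks, and 536 bp in replicate 2 (982.5 ± 631.4 bp, SD, n = 2). The replicated Car12 peak, chr9:66713713-66714454, had a signal of 5.33, lower than in all but 3.53% of marked genes. A Car12 start 34024 bp further downstream was 33256 bp from the nearest peak. The Car5b domain was 352 bp in replicate 1 and 1003 bp in replicate 2 (677.5 ± 460.3 bp, SD, n = 2). Its main peak, chrX:164027542-164028085, covered both Car5b starts with a signal of 7.87, and its second peak was absent from replicate 1. For Car12 and Car5b the replicates thus differed by more than the narrower of the domains.

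Car4 (chr11:84957786-84966044, plus strand), a lipid-anchored enzyme of the cell surface, had no peak within 38261 bp of a start, and the replicate lists had none within 37974 bp. Car8 (chr4:8143362-8239041, minus strand) encodes a relative that lacks catalytic activity, and its start was 38762 bp from the nearest replicated peak. In replicate 1 the nearest peak was 20442 bp away and in replicate 2 21254 bp. The replicated peak lies in an intron of Car8 itself, chr4:8198564-8200279, 1716 bp wide, with a signal of 7.37 and of 10.8 and 6.09 in the replicates. It was the strongest body peak of the family, and the nearest annotated start of any gene lay 31949 bp away. Car14 (chr3:95897768-95904691, minus strand), a membrane enzyme that lies on chromosome 3 but outside the cluster, was a borderline case. Replicate 1 had a peak 997 bp upstream of its first start with a signal of 3.55, and replicate 2 had another 628 bp upstream with a signal of 3.92. These peaks do not overlap each other, and the nearest replicated peak was 1378 bp away.

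Promoter sequence was then set beside the calls, which are the values the genes were chosen by, so the counts by class are a description. Over 500 bases on each side of the first start, the observed to expected CpG ratio put 5 members in the low class (under 0.4), 2 in the intermediate class and 3 in the high class (at least 0.6, with a GC share of at least 0.5). Of the low class 4 were marked, namely Car1, Car3, Car5b and Car9, against 16.6% of 8785 low-CpG genes. Of the high class only Car2 was marked, and Car4 and Car8 were not, against 79.8% of 9738 high-CpG genes. Both intermediate genes, Car13 and Car12, were marked, against 53.0%. Car1 had the lowest ratio, 0.144, with a GC share of 37.6%, and the domain of Car1 was the widest of 1456 marked low-CpG genes, whose median was 1799.5 bp. Car2 had the highest ratio, 0.795, and its domain ranked 206 of 7772 in its class. The Car3 domain ranked 436 of the marked low-CpG genes, but it lay 5445 bp from the first start, on which its CpG class rests. The Car9 peak likewise began 895 bp downstream of the first start, outside the bases that set its class. For Car3 and Car9 the class therefore does not describe the marked sequence. At most 2.16% of the 32-base words of a member's promoter occur elsewhere in the genome.

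**Figure D4:**
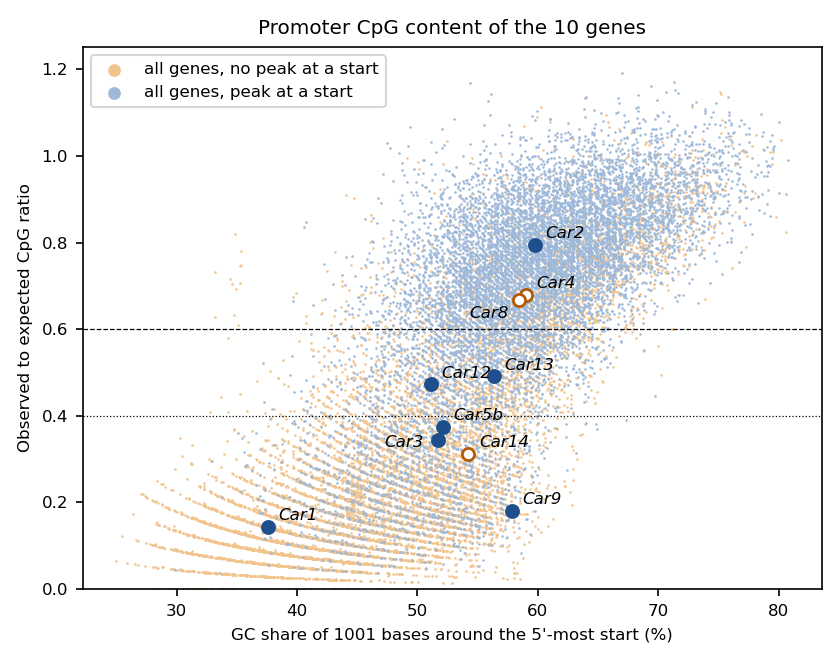
Observed to expected CpG ratio against GC share (%) over 500 bases on each side of the 5'-most start, for all protein-coding genes with (blue) and without (orange) a peak at a start, and for the 10 carbonic anhydrase genes (large filled symbols marked, open symbols not marked). Lines show the limits of the classes at ratios of 0.4 and 0.6. Car1 lies at 0.144 among mostly unmarked genes and is marked, whereas Car4 at 0.680 and Car8 at 0.668 lie among mostly marked genes and are not.

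The RefSeq promoter table (GRCm38.p6, 250 bases before to 50 after each start) matched 5 of the 10 genes, Car4, Car5b, Car9, Car12 and Car14, and had no entry for Car1, Car2, Car3, Car13 and Car8. The bases upstream of the exon are shown for a pair of marked and a pair of unmarked genes, to set their CG content side by side. Capitals mark CG. The stretches are chr4:43506776-43506965 (plus strand) and chrX:164028011-164028260 (minus strand) for the marked genes Car9 and Car5b, and chr11:84957504-84957753 (plus strand) and chr3:95904692-95904935 (minus strand) for the unmarked genes Car4 and Car14.
Car9: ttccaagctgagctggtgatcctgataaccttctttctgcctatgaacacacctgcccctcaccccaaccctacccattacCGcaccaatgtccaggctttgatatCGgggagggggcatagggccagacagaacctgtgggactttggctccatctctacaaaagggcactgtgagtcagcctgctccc
Car5b: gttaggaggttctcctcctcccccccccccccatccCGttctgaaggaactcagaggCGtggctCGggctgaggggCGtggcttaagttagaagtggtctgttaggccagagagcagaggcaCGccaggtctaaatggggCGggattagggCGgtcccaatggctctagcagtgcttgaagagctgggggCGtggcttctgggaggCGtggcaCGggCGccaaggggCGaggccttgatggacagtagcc
Car4: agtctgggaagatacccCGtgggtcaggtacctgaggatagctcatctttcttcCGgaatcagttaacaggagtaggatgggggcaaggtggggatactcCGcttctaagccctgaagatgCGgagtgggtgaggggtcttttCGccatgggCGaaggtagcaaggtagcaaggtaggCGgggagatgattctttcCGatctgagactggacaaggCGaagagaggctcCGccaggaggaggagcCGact
Car14: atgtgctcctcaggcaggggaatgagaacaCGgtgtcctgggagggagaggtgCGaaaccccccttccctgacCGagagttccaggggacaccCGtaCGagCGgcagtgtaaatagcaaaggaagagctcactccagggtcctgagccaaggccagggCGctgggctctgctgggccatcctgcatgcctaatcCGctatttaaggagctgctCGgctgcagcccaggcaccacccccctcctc

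The stretch of Car9 holds 2 CG and that of Car5b 12, against 11 for Car4 and 9 for Car14. In the full windows of 300 bases the counts were 5 for Car9, 12 for Car5b, 15 for Car4, 13 for Car14 and 9 for Car12, with a median of 7 over 32851 promoters. In these windows the 3 marked genes had fewer CG than both unmarked genes, though Car5b with 12 was close to Car14 with 13. The Car9 window lay outside the Car9 peak. The marked genes Car1, Car2, Car3 and Car13 could not be counted. None of the 5 windows held AGATAA or CCACACCC, which 11.2% and 3.56% of all promoters hold. ACGTG was found once each in Car14, Car9 and Car4, and in 19.6% of all promoters. In Car9 its first base lay 18 bases before the RefSeq start and 42 bases after the first GENCODE start, chr4:43506996-43507025 on the plus strand, here with the match in capitals, which reads ACGTG on the other strand.
Car9 ACGTG: ctatttccgatgCACGTacagcccgtccac

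The remaining 8 genes of the carbonic anhydrase family, chosen by family and not by activity, and a list of carriers were called in the same way. Of the 8, Car7 and Car11 were marked, 25% against the background of 50.3%, and both shared their peaks with a neighbour, Nae1 for Car7 and Dbp for Car11. Car5a, Car6, Car10, Car15, Ptprg and Ptprz1 were not marked, with the nearest peaks 2468 bp from Car5a and 1170 bp from Car6. Of 26 bicarbonate, acid and gas carriers 16 were marked (61.5%), 14 in replicate 1 and 17 in replicate 2. The widest carrier domains were those of the lactate transporter Slc16a1 (4996 bp), the anion exchanger Slc4a2 (4253 bp) and the exchanger regulator Slc9a3r1 (4224 bp), all narrower than the domain of Car2. Among carriers of the red cell, the water channel Aqp1 had 2230 bp with a signal of 5.14 and the Rh glycoprotein Rhag 3066 bp with a signal of 9.92. Slc4a1, the band 3 anion exchanger of red cells, was not marked, and its nearest peak was 39862 bp away. Slc4a3 and Slc4a4, relatives of Slc4a1, were not marked either.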

How the data were processed

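H3K4me3 was measured by ChIP-seq in 2 replicates of 1 group. Per the labels, coordinates are mm10, the same build as GRCm38. The deposited lists give for each peak a signal score, −log10 q and a summit. The sources used here do not give how the authors defined the score, called peaks or chose replicated ones. Every replicated peak was found in the pooled list. Scores were used to rank peaks within a list. Chromosomes 1 to 19, X and Y were used, with 37379 replicated, 41067 pooled, 51781 replicate 1 and 41501 replicate 2 peaks. Transcript starts came from GENCODE M21. Python 3.11.15, pandas 2.3.3, numpy 2.4.6, numba 0.67.0, Biopython 1.88 and matplotlib 3.10.9 were used, and the calls were tested on simulated data. The labels number the replicates as biological but give both the same biosample record, so the SD between them may be technical. No test was run because there is 1 group.

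The members and lists were chosen with earlier results of these data known. Named genes were all members, the 8 other family genes, the 3 carriers with the widest domain, Slc4a1, Aqp1 and Rhag, the first 3 unmarked carriers in list order, and the 3 nearest protein-coding genes on each side of the cluster. A planned comparison of proteins was replaced by one of coding sequences, as no protein sequences were used here. The mm9 list was not used. Alternatives were other start windows, merge gaps, lists, overlaps and q limits.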

Additional observations from a re-analysis of the deposited data

How the results depend on the processing

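Counts of marked members stayed within 1.5 times their value under every alternative. Car14 was gained with a start window of 2500 bp (8 members, against 51.9% of all genes), and Car3 was lost when the 5'-most start alone was used (6 members, 3 of the cluster, against 46.9%). The other family genes rose from 2 to 4 with the same window of 2500 bp, which adds Car5a and Car6. Between-gene peaks numbered 5, 3 with −log10 q of at least 5, 8 in the pooled list, and 5 to 12 when either replicate was left out, with 12 without replicate 2. Body peaks numbered 11, 3 at that q limit, and 14 to 20 when either replicate was left out, with 20 without replicate 2. The median widest domain of marked members was 1559 bp, and 1043 bp for single peaks. At the q limit and with a gap of 500 bp it was 1499 bp. When either replicate was left out it was 1793 to 1863 bp, over 8 marked members, as Car14 was added. Among the 7 genes of the replicated list, the Car9 domain held the middle rank in each replicate, 1633 bp in replicate 1 and 1489 bp in replicate 2. Car1 ranked 1 to 4 by width under every alternative run, and Car2 171 to 504. The order of signals was not the same in every list. In replicate 1 alone, the strongest start peak of Car1 was above that of Car2, and that of Car3 above that of Car9. Apart from the addition of Car14 to these medians, the cause of the changes was not tested. Leaving out a replicate means using the other replicate's list, which was called on its own. No paired analysis was possible because there is 1 group. With no read counts, depth cannot be judged, and too few reads could leave a gene without a peak.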

Other observations

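The cluster lies at the edge of a stretch with few peaks. On the Car13 side the 3 nearest protein-coding genes, Lrrcc1, E2f5 and 1810022K09Rik, were marked with domains of 2107, 1755 and 1879 bp, and the last replicated peak before Car13 was 29657 bp from the Car13 peak. That gap was 29629 bp in replicate 1, and in replicate 2 another peak lay 108 bp before the Car13 peak. The strongest peak of 1810022K09Rik had a signal of 29.1, above every peak of the carbonic anhydrase genes in the replicated list. On the Car2 side the next replicated peak was 300167 bp away, 300174 bp in replicate 1 and 103111 bp in replicate 2. The 3 nearest protein-coding genes there, Gm9733, Sirpb1a and Sirpb1b, were not marked, and their nearest peaks lay 47957, 142077 and 290640 bp from a start.

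The clustered genes are also alike in sequence. Coding sequences were aligned in pairs, and identity was taken over the aligned bases alone, with gaps and unaligned ends left out. The 6 pairs among Car1, Car2, Car3 and Car13 were 62.5 to 67.3% identical (median 64.5%). The 39 other pairs of members were 55.0 to 64.1% identical (median 60.0%). The closest pair was Car1 and Car3 at 67.3%, whose domains were 13100 and 2485 bp. Pairs share genes, so these values are a description.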
